A study of Mus musculus with 12 samples.

Results

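The genes described here are 10 enzymes of the methionine cycle and of the one-carbon reactions attached to it: Mat1a, Mat2a, Gnmt, Ahcy, Bhmt, Bhmt2, Cbs, Cth, Ftcd and Pemt. They were taken by symbol from a table of exonic read counts with 38087 genes, where each of the 10 symbols stands on 1 row. RNA came from livers of germ-free male C57BL/6j mice aged 13 to 16 weeks, animals that carry no gut microbes. The GH group received growth hormone (GH; recombinant, human sequence, 50 µg for each mouse) beneath the skin and the PBS group phosphate-buffered saline, 2 injections daily, at ZT 2 and ZT 14 (hours after lights on), for 5 days. All livers in both groups were sampled at ZT 2, and each group has 6 libraries. The labels number the samples without stating that each is a separate animal, and p-values therefore describe the spread among these 12 samples, which may be partly technical. The comparison asks how injected GH changes liver RNA in male mice without a microbiota. Human GH also binds the prolactin receptor in mice, so the agent is not a pure GH receptor ligand.

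The methionine cycle turns dietary methionine into S-adenosylmethionine, the methyl donor of most methylation reactions. Methyl transfer leaves S-adenosylhomocysteine, which is split to homocysteine, and homocysteine is either methylated again to methionine or passed on through cystathionine to cysteine. Liver carries out much of the body's methionine metabolism, with an isoform of the first enzyme, Mat1a, that marks mature hepatocytes.

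Totals ran from 19523104 to 23278931 counts per library. In the fit over all genes tested, 323 were higher and 359 lower in GH at an adjusted p under 0.05, and 211 and 658 with scaling by library totals, under which the all-gene median log2 fold change shifted to -0.06. GH replicate 6 stood apart within its group: for 302 of 14235 genes tested it lay on the PBS side while the 5 other GH libraries all lay beyond the PBS range, against 61 to 99 genes for each of the other GH libraries. On principal component 1, which separated the groups, GH replicate 6 lay at 11.1, between the other GH libraries (17.8 to 21.2) and the PBS libraries (-22.4 to -12.4). The files hold no measure of the dose each mouse received, so its group rests on its label, and every GH mean over 6 libraries includes it. PBS replicate 5 was the library farthest from its group on principal component 3. With both left out 1022 genes were called, against 682 with all 12 libraries. For the 10 enzymes, values without these libraries are given where they change the call or the direction. Hepatocyte markers were abundant, Alb at 74870 ± 6339 CPM (counts scaled to library size; SD, n = 6) in PBS and 62486 ± 6754 in GH (edgeR adjusted p = 0.108). None of the 7 hepatocyte markers tested passed in edgeR. Their log2 fold changes (GH minus PBS) ran from -0.26 for Alb to 0.25 for Apob, with a median of 0.11. Of 35 markers of Kupffer cells, endothelium, stellate cells, cholangiocytes and blood that were tested, 1 passed. This was Alas2, a haem synthesis gene of erythroid cells, which was higher in GH (77.6 ± 21.5 to 171 ± 21.6 CPM, edgeR adjusted p = 0.003). The globin genes Hba-a1 and Hbb-bs, also of the blood list, did not pass (edgeR adjusted p = 0.733 and 0.817). The summed level of each of these 5 lists overlapped between the groups. The blood list summed to 92.2 to 336 CPM in PBS and 210 to 393 in GH, and its part in the results below was not tested.

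All 10 genes were well above the filter on low counts, with 892 to 124499 counts in any library. Mat1a, the liver enzyme that makes S-adenosylmethionine, fell in GH, and Ftcd, an enzyme that moves histidine carbon into the folate pool, rose. The other 8 did not pass, with log2 fold changes (GH minus PBS) from -0.12 for Ahcy to 0.19 for Bhmt2 and adjusted p from 0.180 to 0.960. The 2 called among 10 stand against a background of 4.79% of all genes tested, 2.27% higher and 2.52% lower. For none of the 10 were the groups fully separated, which was so for 3.18% of all genes tested, 1.45% higher and 1.72% lower. An unadjusted p under 0.05 was reached by 3 of the 10 (Mat1a, Ftcd and Bhmt2), beside 19% of all genes tested. The median log2 fold change of the 10 was -0.04, beside 0.00 (rounded) over all genes. The call threshold was a Benjamini-Hochberg adjusted p of 0.05 over 14235 genes in edgeR's quasi-likelihood test, which is the source of every adjusted p below unless another tool is named.

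**Figure D1:**
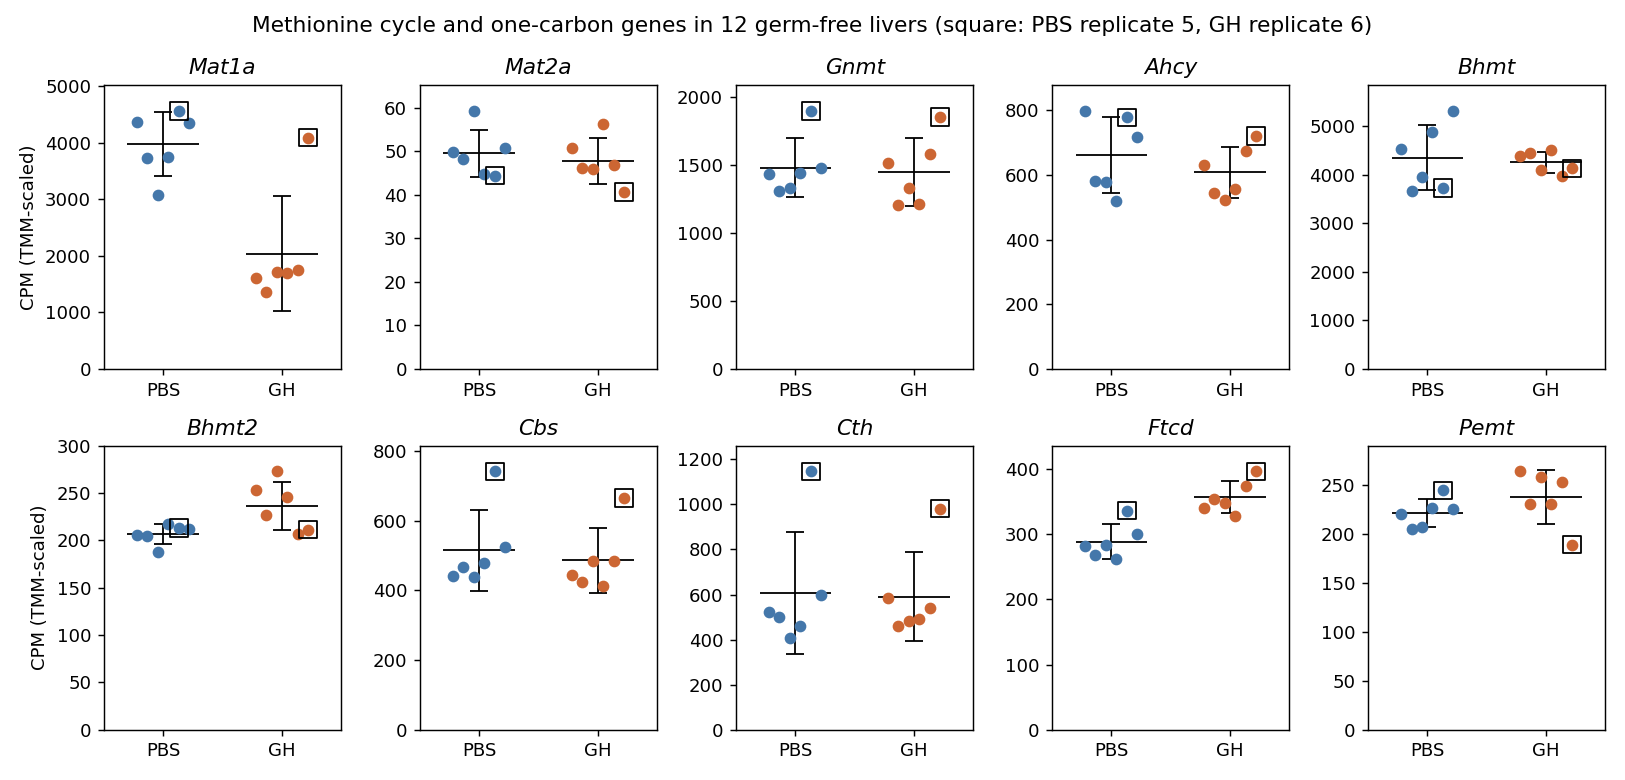
TMM-scaled CPM (y axis, from 0) of each gene in the 6 PBS livers (blue) and the 6 GH livers (orange); points are libraries, horizontal lines are means, bars are SD, and squares mark PBS replicate 5 and GH replicate 6. For Mat1a, 5 GH livers lay between 1367 and 1752 CPM and GH replicate 6 at 4087, inside the PBS range of 3072 to 4563.

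Mat1a and Mat2a encode the catalytic subunits of methionine adenosyltransferase, which joins methionine and ATP. Mat1a (mm10 chromosome 14, 41105035 to 41124412, plus strand, 10 merged exons) is the form of adult hepatocytes, and Mat2a (chromosome 6, 72432799 to 72439558, minus strand) is the form of most other tissues and of growing liver cells. PBS replicates 1 to 6 had Mat1a at 4368, 3730, 3072, 3754, 4563 and 4351 CPM. GH replicates 1 to 5 had it at 1608, 1367, 1718, 1688 and 1752 CPM, and GH replicate 6 at 4087 CPM. In this gene 5 of 6 GH libraries lay below every PBS library, and GH replicate 6 lay among the PBS values. Over all 12 libraries Mat1a went from 3973 ± 560 to 2037 ± 1014 CPM (SD, n = 6), a log2 fold change of -0.96 ± 0.25 (SE; 95% interval -1.50 to -0.42; adjusted p = 0.0472).

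The size of that call turned on GH replicate 6. Without it the GH mean was 1627 ± 154 CPM (SD, n = 5) and the log2 fold change -1.29 ± 0.10. The adjusted p was then 4.18e-06, which gave Mat1a rank 5 by p among all genes in that fit. That fit takes out the only GH library within the PBS range of Mat1a, singled out after its values were seen. Its small p and high rank follow from that choice and are no separate support for the decrease. With GH replicate 6 kept and any other single library left out the call was lost, with log2 fold changes from -1.03 to -0.87 and adjusted p from 0.0589 (without PBS replicate 3) to 0.102 (without GH replicate 3). The adjusted p was also 0.115 with no filter on low counts, while DESeq2 gave 0.0261. Among 117 genes with a mean of at least 1000 CPM, a comparison chosen after the values were seen, the decrease of Mat1a was the second after that of the cytochrome gene Cyp2c29, and the first without GH replicate 6. In bulk RNA, fewer cells that express a gene and less of its RNA per cell cannot be told apart. Summed hepatocyte markers ran from 103488 to 119029 CPM in PBS and from 92088 to 114866 in GH, the lowest being GH replicate 6. Most of that sum is Alb, at 50202.5 CPM in GH replicate 6. In that library Alb, Ttr and Apoa1 lay below all other GH livers. Fgb (8522 CPM against 6248 to 6896) and Hnf4a (612 against 447 to 564) lay above them, and Apob and Serpina1c lay among them. The share of hepatocytes in each library was not tested.

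Mat2a did not follow in either direction: its lowest, median and highest values were 44.4, 49.0 and 59.3 CPM in PBS and 40.7, 46.6 and 56.2 CPM in GH. Its log2 fold change was -0.05 ± 0.08 (95% interval -0.23 to 0.13, adjusted p = 0.793). The regulatory subunit gene Mat2b was at 28.9 ± 1.88 and 28.7 ± 2.09 CPM (adjusted p = 0.954). The ratio of Mat1a to Mat2a counts, which does not depend on library scaling, was 51.8 to 103 in PBS and 29.5 to 37.4 in GH replicates 1 to 5, and 100.4 in GH replicate 6. On the log2 scale this ratio averaged 6.32 ± 0.33 for PBS livers and 5.31 ± 0.67 for GH livers (SD, n = 6). Exons of Mat2a overlap those of Particl on the opposite strand, so some of its reads could be assigned to either if strand was not used.

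**Figure D2:**
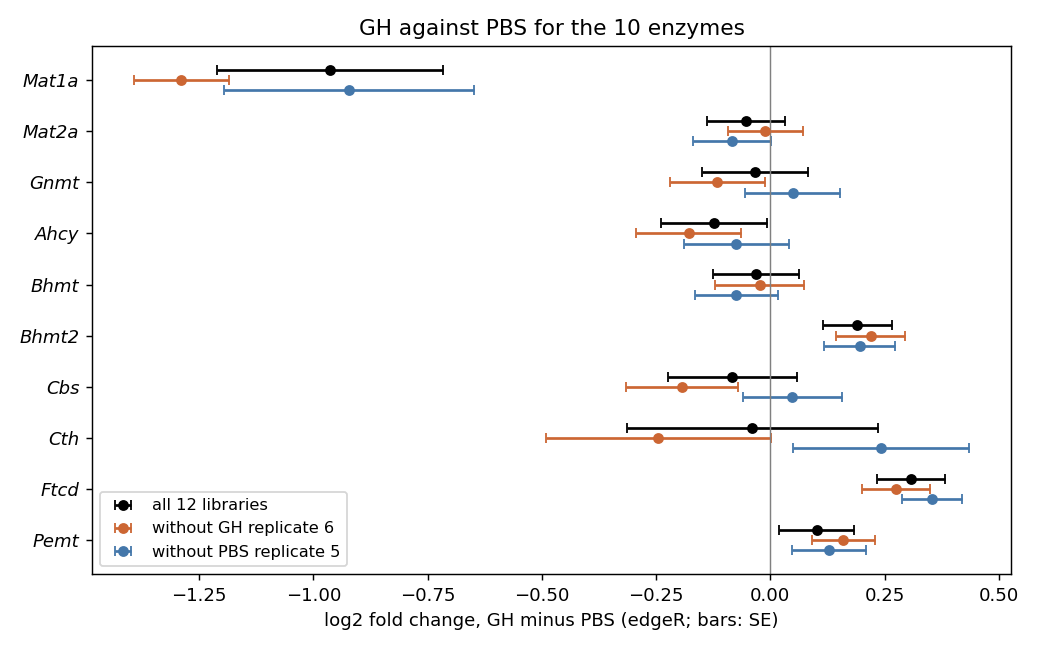
Log2 fold change of GH over PBS (x axis; bars are SE) of the 10 genes in edgeR with all 12 libraries (black), without GH replicate 6 (orange) and without PBS replicate 5 (blue). Mat1a moved from -0.96 to -1.29 without GH replicate 6, and Cth from -0.04 to -0.25 without GH replicate 6 and to 0.24 without PBS replicate 5.

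Of the 10 enzymes, Gnmt and Pemt spend S-adenosylmethionine and Ahcy clears its product, and none of these 3 passed in edgeR (unadjusted p from 0.231 to 0.780). Gnmt, glycine N-methyltransferase (chromosome 17, 46725664 to 46729168), removes surplus S-adenosylmethionine by methylating glycine, and had a lowest, median and highest value of 1305, 1437 and 1899 CPM in PBS and 1205, 1419 and 1854 CPM in GH. The groups overlapped over nearly their whole range, with a log2 fold change of -0.03 ± 0.12 (95% interval -0.28 to 0.21; adjusted p = 0.919). Pemt (chromosome 11, 59970614 to 60046489), which methylates phosphatidylethanolamine to phosphatidylcholine, went from 222 ± 14.3 to 238 ± 27.6 CPM (SD, n = 6; log2 fold change 0.10 ± 0.08, adjusted p = 0.551). GH replicate 6 was the lowest of all 12 libraries for Pemt at 189 CPM, and the 5 other GH libraries ran from 231 to 264 CPM. Without it the log2 fold change was 0.16 (adjusted p = 0.214).

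Ahcy (chromosome 2, 155059310 to 155074497) encodes the hydrolase that splits S-adenosylhomocysteine, an inhibitor of methyltransferases. It ran from 520 through a median of 649 to 798 CPM in PBS and from 524 through 593 to 720 CPM in GH, a log2 fold change of -0.12 ± 0.12 with an adjusted p of 0.619. Reads of Ahcy may be shared: 61.5% of the 125-base windows in its transcripts also occur in Gm4737 or Gm9826, single-exon copies counted as separate genes. Gm4737 stood at 22.6% to 26.2% of the Ahcy CPM in every library. With the copies summed into Ahcy the log2 fold change was -0.11.

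The remethylation of homocysteine by betaine is done by Bhmt (chromosome 13, 93616675 to 93637961), and its neighbour Bhmt2 (chromosome 13, 93655720 to 93674302) encodes a related enzyme that uses S-methylmethionine. Bhmt was the most abundant of the 10 by CPM, with 3675, 4250 and 5321 CPM as lowest, median and highest value in PBS and 3978, 4265 and 4507 CPM in GH. Its log2 fold change was -0.03 ± 0.09 (adjusted p = 0.904). All GH values lay inside the PBS range. Bhmt2 went from 207 ± 10.4 to 236 ± 25.6 CPM (SD, n = 6), with 4 of 6 GH libraries above the highest PBS library, and its log2 fold change of 0.19 ± 0.08 did not pass (unadjusted p = 0.0229, adjusted p = 0.180). The ratio of Bhmt to Bhmt2 counts was 17.5 to 25.1 in PBS and 15.03 to 19.6 in GH. Of the 125-base windows of Bhmt 14.3% also occur in Gm5096 or Bhmt-ps1, and with these summed into Bhmt its log2 fold change was -0.02; only 0.128% of the Bhmt2 windows occur in another gene. Mtr, the methionine synthase that takes its methyl group from folate, was at 11.8 ± 1.12 CPM in PBS and 13.6 ± 1.02 CPM (adjusted p = 0.198).

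Cbs and Cth carry homocysteine through cystathionine to cysteine, the transsulfuration route. Neither passed, and the spread of both came mainly from a pair of libraries, PBS replicate 5 and GH replicate 6. Cth (cystathionine gamma-lyase, chromosome 3, 157894248 to 157925077) was at 1146 CPM in PBS replicate 5 and between 409 and 599 CPM in the other PBS libraries. It was at 982 CPM in GH replicate 6 and between 459 and 583 CPM in the other GH libraries. The level in these libraries was 2.30 and 1.92 times the mean of the 5 others of their group. Over all libraries Cth went from 606 ± 272 to 590 ± 197 CPM (SD, n = 6), with a log2 fold change of -0.04 ± 0.28 and a 95% interval of -0.64 to 0.56 (adjusted p = 0.960), which as a ratio spans 0.640 to 1.48. With both libraries left out it was 0.04 ± 0.09 (adjusted p = 0.872).

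Cbs (cystathionine beta-synthase, chromosome 17, 31608894 to 31637238) showed the same pair of high libraries, with 741 CPM in PBS replicate 5 against 438 to 524 CPM in the other PBS livers. GH replicate 6 was at 665 CPM against 413 to 485 CPM in the other GH livers. Its log2 fold change was -0.08 ± 0.14 (adjusted p = 0.808), -0.19 without GH replicate 6, 0.05 without PBS replicate 5 and -0.06 without both. Gnmt was likewise highest in these libraries, at 1899 and 1854 CPM, which was 1.36 times the mean of the others in each group. In all, 5 of the 10 genes (Mat1a, Gnmt, Cbs, Cth and Ftcd) had PBS replicate 5 as the highest PBS library and GH replicate 6 as the highest GH library, and 6.64% of all genes tested did. The libraries were singled out after their values were seen, and no test was made of this pattern.

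**Figure D3:**
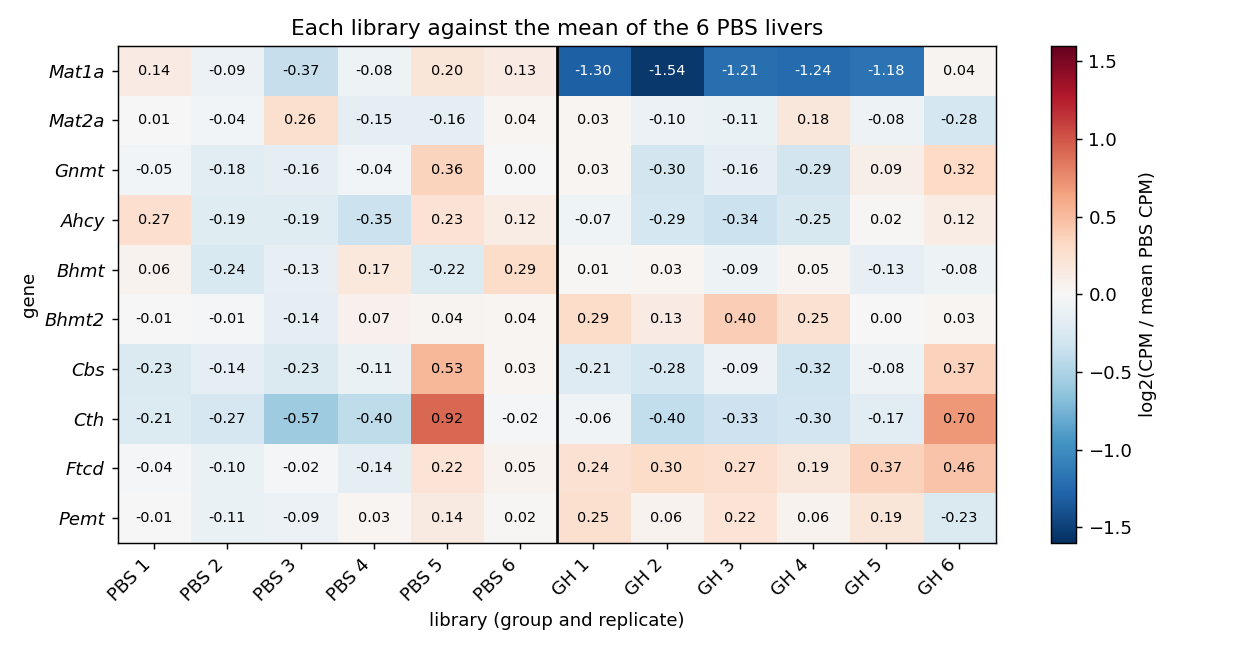
Log2 of the CPM in each library over the mean CPM of the 6 PBS livers, for the 10 genes (rows) in the 12 libraries (columns; the line separates PBS from GH); red is higher and blue is lower. Mat1a was 1.18 to 1.54 lower in GH replicates 1 to 5, while Cth and Cbs stood high in PBS replicate 5 and GH replicate 6.

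Ftcd (chromosome 10, 76575648 to 76590338, plus strand, 14 merged exons) encodes formimidoyltransferase cyclodeaminase, which takes the formimino group left by histidine breakdown and hands it to tetrahydrofolate. PBS replicates 1 to 6 had 281, 269, 284, 262, 336 and 299.6 CPM, and GH replicates 1 to 6 had 340, 355, 348.5, 329, 374 and 396 CPM. The 5 highest libraries were GH livers, and the ranges met only where GH replicate 4, at 329 CPM, lay below PBS replicate 5, at 336 CPM. Ftcd rose from 289 ± 26.7 to 357 ± 24.4 CPM (SD, n = 6), by 0.31 ± 0.07 on the log2 scale (SE; 95% interval 0.15 to 0.46; adjusted p = 0.0247). All 6 GH libraries were above the PBS mean. The call was lost without PBS replicate 3, PBS replicate 4, GH replicate 2 or GH replicate 5 (adjusted p = 0.0589, 0.0563, 0.0539 and 0.0583), and with scaling by library totals (0.25, adjusted p = 0.0564).

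The promoter window of Ftcd is shown because it is the gene that rose, from 250 bases before to 50 bases after the start that RefSeq gives (GRCm38.p6, chr10:76575398-76575697, plus strand), with its 1 motif match in capitals, a TATA box that begins 29 bases upstream.
Ftcd promoter: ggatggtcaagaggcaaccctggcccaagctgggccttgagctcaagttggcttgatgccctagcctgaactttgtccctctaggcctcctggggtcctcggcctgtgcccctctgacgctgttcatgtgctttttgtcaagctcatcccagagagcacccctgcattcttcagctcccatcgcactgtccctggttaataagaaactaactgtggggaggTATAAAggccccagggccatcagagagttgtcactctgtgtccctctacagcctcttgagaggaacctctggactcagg
The windows of 8 of the 10 genes, all but Mat1a and Cth, were found in the table and searched on both strands for 4 motifs, none of which contains another. The TATA box, TATAAA, was in the windows of Ftcd and Mat2a and in 13.6% of 32851 windows of all genes. The CCAAT box, searched as CCAAT, was in 6 of the 8 (Ahcy, Bhmt, Cbs, Gnmt, Mat2a and Pemt) and in 37.4% of all. The paired half-sites bound by STAT5 and BCL6, searched as TTCNNNGAA, were found for Pemt alone among the 8 and in 8.30% of all. The matches of Pemt, its CCAAT box included, lay in the window chr11:60040139-60040438. Its other window, chr11:60036956-60037255, held none of the 4 motifs. The HNF6 motif, searched as ATTGATTT, was in 0 of the 8 and in 1.2% of all. Matches describe letters in these windows and no binding.

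The 3 steps of histidine breakdown before Ftcd did not pass. Hal, histidine ammonia-lyase, was at 516 ± 83.7 and 487 ± 153 CPM (adjusted p = 0.852), and Uroc1, urocanate hydratase, at 435 ± 51.8 and 455 ± 72.4 CPM (adjusted p = 0.795). Hal was at 782 CPM in GH replicate 6, against 364 to 511 CPM in the other GH livers, and at 655 CPM in PBS replicate 5, against 395 to 531 CPM in the other PBS livers. The log2 fold change of Hal was -0.08 with all libraries, -0.27 without GH replicate 6 (adjusted p = 0.195), -0.0049 without PBS replicate 5 and -0.19 without both. For Amdhd1, the next enzyme, the change was -0.22 on the log2 scale (adjusted p = 0.282). All 3 had PBS replicate 5 and GH replicate 6 as the highest of their groups.

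Per length of merged exons the order in PBS was Gnmt (1228 ± 179 CPM per kb; SD, n = 6), Mat1a (1146 ± 161), Bhmt (756 ± 117), Ahcy (236 ± 41.8), Cth (217 ± 97.5), Pemt (105 ± 6.81), Ftcd (90.4 ± 8.36), Bhmt2 (83.9 ± 4.21), Cbs (68.8 ± 15.4) and Mat2a (11.0 ± 1.22). Within this order the libraries of each gene overlapped those of the next, except between Bhmt and Ahcy, between Cth and Pemt and between Cbs and Mat2a. In GH the order differed in 1 place: Mat1a, at 587 ± 292 CPM per kb, came after Bhmt, at 740 ± 37.6, and their ranges overlapped through GH replicate 6. In GH the ranges of neighbours were separate between Gnmt and Bhmt, Mat1a and Ahcy, Cth and Pemt, and Cbs and Mat2a. Mat1a made up 29.1% of the summed level per kb of the 10 genes in PBS and 17.5% in GH. The merged exons hold all annotated isoforms, so a gene with long rare exons, such as Cbs with 7485 bases, is set low on this scale.

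**Figure D4:**
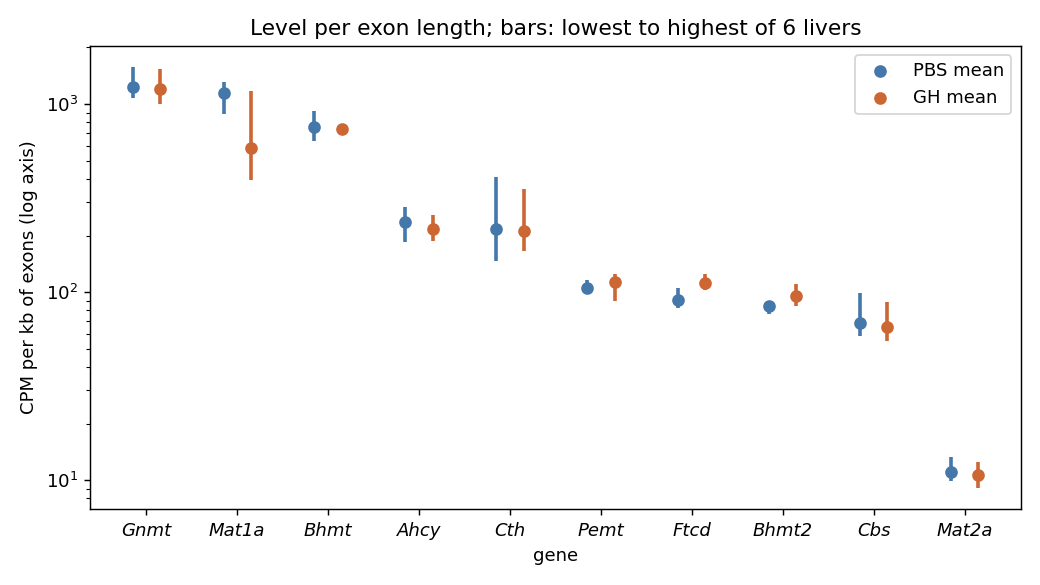
Level per exon length (CPM per kb, log axis) of the 10 genes in order of their PBS mean; points are group means of 6 livers, bars run from the lowest to the highest liver. Gnmt, Mat1a and Bhmt led in PBS, and Mat1a reached from 394 to 1178 CPM per kb in GH.

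Around these enzymes, 82 genes of neighbouring steps were tested, of which 2 rose and 6 fell. This is a share of 9.76% beside the 4.79% over all genes, and their median log2 fold change was -0.05. The lists were chosen with earlier results of these data known, and the difference between the shares was not tested. In the folate cycle and serine supply, 1 of 22 fell and none rose by edgeR (median -0.00). Mthfd1, the cytosolic enzyme with 3 folate activities, went from 275 ± 12.6 to 237 ± 10.6 CPM (SD, n = 6; log2 fold change -0.22 ± 0.06, adjusted p = 0.0481), with all GH livers below all PBS livers. Of the 12 fits that each omit 1 library, 10 lost this call, with an adjusted p of up to 0.114 on omitting GH replicate 2. Shmt1, the cytosolic serine hydroxymethyltransferase, just missed it, at 185 ± 23.2 and 144 ± 21.6 CPM (adjusted p = 0.0515; 0.0195 in DESeq2).

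Of 21 genes of choline, betaine and glycine metabolism 1 rose and 2 fell (median -0.08). Cept1, which completes phosphatidylcholine and phosphatidylethanolamine, fell from 70.4 ± 5.30 to 49.7 ± 5.12 CPM (log2 fold change -0.50 ± 0.08, adjusted p = 0.00116), with separated groups and a call kept in all 12 fits with 1 library left out. Etnk2, an ethanolamine kinase gene, rose by 0.43 ± 0.10 (adjusted p = 0.0211; not called in 3 of the 12 fits, up to 0.0591 without GH replicate 1). Amt, the aminomethyltransferase of glycine cleavage, fell by 0.34 on the log2 scale (adjusted p = 0.0445; not called in 8 of the 12, up to 0.105 without PBS replicate 6). Chdh, choline dehydrogenase, which makes the betaine used by Bhmt, was at 130 ± 9.02 and 119 ± 5.97 CPM (adjusted p = 0.290).

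Downstream of cysteine, 1 of 14 tested genes rose and 2 fell (median -0.11). Csad, the decarboxylase that leads to taurine, fell from 70.2 ± 9.03 to 38.3 ± 7.97 CPM (log2 fold change -0.87 ± 0.12, adjusted p = 0.000994), with separated groups and a call kept in all 12 fits with 1 library left out. Sqrdl, which oxidises hydrogen sulfide in mitochondria, fell from 181 ± 13.2 to 139.6 ± 18.9 CPM (adjusted p = 0.0186), and its call was kept in the same 12 fits but not with the replicate number as a block (adjusted p = 0.05002). Gclc, the catalytic subunit of the rate-limiting step of glutathione synthesis, rose from 352 ± 43.9 to 505 ± 108 CPM (adjusted p = 0.0373), though 9 of the 12 fits did not call it (up to 0.0889 on omitting GH replicate 2). Cdo1, which oxidises cysteine upstream of Csad, was at 1830 ± 243 and 1668 ± 115 CPM (adjusted p = 0.463).

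Among 22 other genes that use or recycle S-adenosylmethionine 1 fell and none rose by edgeR (median -0.05). Gamt, which makes creatine, went from 101 ± 5.23 to 87.8 ± 3.85 CPM (adjusted p = 0.0436), with separated groups, though 9 of the 12 fits did not call it (up to 0.107 on omitting GH replicate 2). Nnmt, which methylates nicotinamide, was at 128 ± 65.8 and 147 ± 84.0 CPM (adjusted p = 0.827); its highest libraries were PBS replicate 5, at 259 CPM, and GH replicate 6, at 315 CPM. Its log2 fold change was 0.21 with all libraries, -0.17 without GH replicate 6, 0.53 without PBS replicate 5 and 0.16 without both.

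**Figure D5:**
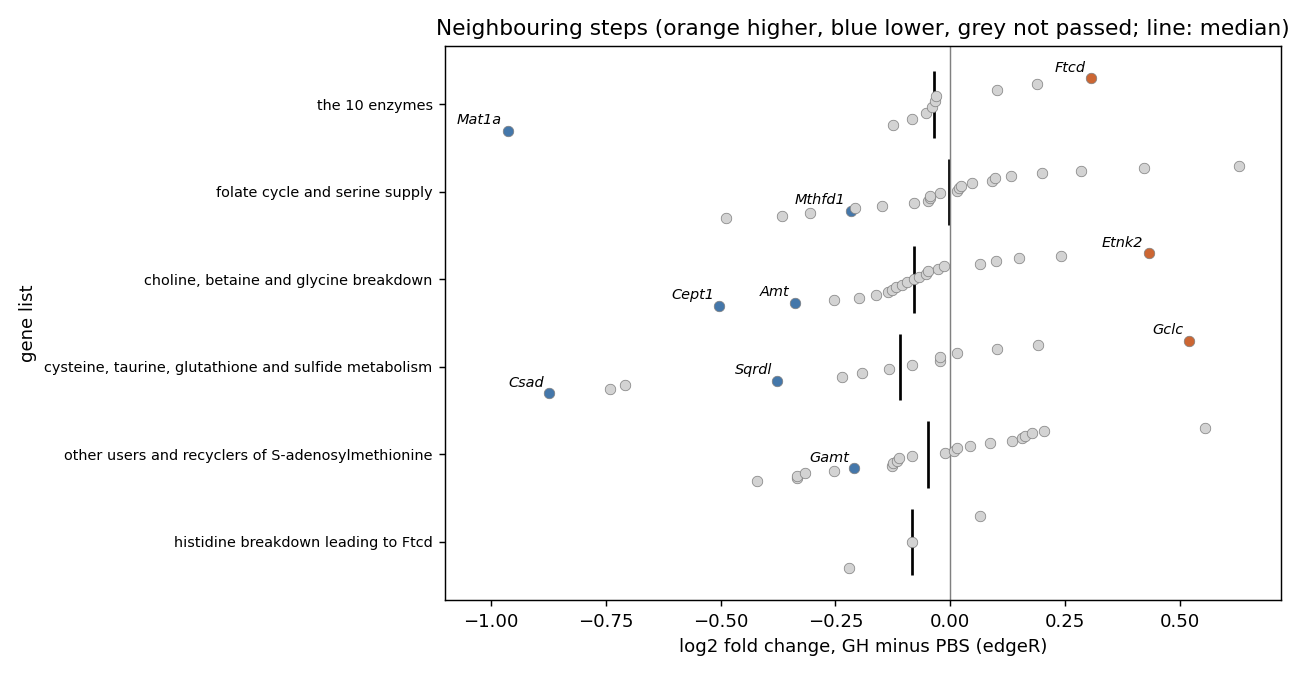
Log2 fold change of GH over PBS (x axis) of each tested gene in 6 lists (rows), with genes that rose in orange, genes that fell in blue, those that did not pass in grey, and the list median as a line. The medians of the 6 lists lay between -0.11 and 0.00, and the named genes are those that passed.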

How the data were processed

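Exonic reads were deposited as raw counts, 1 row per gene, for 12 libraries. Per the labels' protocols these were stranded, ribosomal RNA-depleted total RNA libraries (250 ng of input, 12 PCR cycles, 2 reads of 125 cycles). The submitters' processing notes name STAR 2.4.0i and mm10; how reads were counted (program, gene models, strand, multiple matches) is not stated there. Genes were tested in R 4.3.3 with edgeR 4.0.16: filterByExpr (minimum count 10; 14235 of 38087 genes kept), TMM scaling, a robust quasi-likelihood fit to all 12 libraries (group alone, no covariate), its F test and Benjamini-Hochberg adjustment (threshold 0.05). SE was derived from the log2 fold change and F. CPM are TMM-scaled. The fit was tested on simulated data, with a common spread for all genes, no library that stood apart and changes larger than that of Ftcd. That simulation therefore does not cover smaller changes or a library such as GH replicate 6. Alternatives were DESeq2 1.42.0, limma 3.58.1 (voom), other scalings and filters, a replicate block and libraries left out. Summing copies of Ahcy and Bhmt was added after the data were seen. Coordinates and exon lengths are from GENCODE M21 (mm10) and promoters from RefSeq (GRCm38.p6). No pair of libraries in a group matched within counting noise (chi-square per degree of freedom 9.03 to 77.5). The members and the gene lists were chosen with earlier results of these data known. Named were all 10 enzymes, the called genes of the neighbouring lists (at most 6 each) and 12 fixed genes, of which 1 is not reported here; Amdhd1, Alas2, Alb and Cyp2c29 were added. Of the marker lists Tf did not match a symbol.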

Additional observations from a re-analysis of the deposited data

Results flagged for a closer look

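Of 24 groups of 6 values, the 10 genes and 2 count ratios in PBS and in GH, 7 had a sample whose gap to the nearest other was wider than Dixon's 95% limit allows, which chance gives in about 5% of such groups. They all fell on GH replicate 6 or PBS replicate 5, and the groups share these libraries. The flagged ratio also contains the flagged Mat1a values. The 7 are therefore not independent, and their number was not tested against chance. In GH replicate 6 Mat1a was at 4087 CPM against 1367 to 1752 in the other GH livers, and the ratio of Mat1a to Mat2a counts was 100.4 against 29.5 to 37.4. In that library Cth stood at 982 CPM against 459 to 583, and Cbs at 665 CPM against 413 to 485. In PBS replicate 5 Cth was at 1146 CPM against 409 to 599 in the other PBS livers. Cbs there was at 741 CPM against 438 to 524, and Gnmt at 1899 CPM against 1305 to 1479.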

How the results depend on the processing

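Of the 10 genes, 2 were called with DESeq2, limma-voom, DESeq2's size factors in edgeR, the stricter filter (50 counts in 6 libraries), the copies summed, and with GH replicate 6 and PBS replicate 5 left out together. It was 1 with library totals (Mat1a) or no filter (Ftcd), and 0 to 2 with 1 library left out (0 without PBS replicate 3, PBS replicate 4, GH replicate 2 or GH replicate 5). Over all genes the calls numbered 1072 in DESeq2, and 434 (without GH replicate 2) to 854 (without PBS replicate 5) with 1 library left out, 447 without GH replicate 1. The replicate block gave 391 calls and kept both enzymes (Mat1a -1.06, adjusted p = 0.0161, and Ftcd 0.31, adjusted p = 0.0427). It did not call Mthfd1 (0.114), Amt (0.0769), Sqrdl (0.05002), Gclc (0.147) or Gamt (0.111). The numbers gave little sign of pairing the samples. Of 6 same-numbered pairs 2 correlated above 0.1 (range -0.175 to 0.159), and 1 of 6 GH samples correlated best with its own number. Correlations over all genes cannot exclude a pairing that touches fewer genes. For genes near 0 the sign turned: Cth was 0.0058 with the block and 0.036 without the 2 libraries. With 1 library left out, ranges that crossed 0 were Cth -0.25 to 0.24, Cbs -0.19 to 0.048, Gnmt -0.12 to 0.049, Bhmt -0.078 to 0.034, Mat2a -0.11 to 0.0031, Mat2b -0.039 to 0.018, Nnmt -0.17 to 0.53 and Uroc1 -0.019 to 0.13. Calls of lists in DESeq2 and with library totals were 3 and 3 for the folate cycle, 2 and 3 for users of S-adenosylmethionine and 2 and 1 for hepatocyte markers; choline genes had 5 with library totals and cholangiocyte markers 1 in DESeq2. With 1 library left out calls ran from 0 to 2 (folate), 1 to 4 (choline), 2 to 4 (cysteine), 0 to 1 (users of S-adenosylmethionine), 0 to 1 (hepatocyte), 0 to 3 (endothelium) and 0 to 1 (cholangiocyte). The log2 difference of the Mat1a to Mat2a ratio ran from -1.27 to -0.92 around -1.01. Other calls lost were Mthfd1 (adjusted p = 0.134), Gclc (0.0972) and Gamt (0.149) with no filter, Gclc with library totals (0.0564) and limma-voom (0.0547), and Amt with limma-voom (0.0504) and without the 2 libraries (0.0575). The cause of these changes was not tested. The table holds RNA counts, without protein or metabolite levels.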

Other observations

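Beyond the enzymes above, several neighbouring genes had PBS replicate 5 and GH replicate 6 as the highest library of their groups, libraries singled out after the values were seen. This held for 3 of 22 folate genes (Mthfd1l, Aldh1l1 and Aldh1l2), 6 of 21 choline and glycine genes, 4 of 14 genes of cysteine metabolism and 3 of 22 other users of S-adenosylmethionine, beside 6.64% of all genes tested. Among marker lists it held for 2 of 8 stellate cell and fibroblast markers (Col1a2 and Pdgfrb). It held for 0 of 7 hepatocyte, 0 of 8 Kupffer cell, 0 of 8 endothelial, 0 of 6 cholangiocyte and 0 of 5 blood cell markers tested. The globin genes Hba-a1 and Hbb-bs were at 65.1 and 159 CPM in PBS replicate 5, against 6.38 to 24.7 and 18.5 to 65.2 in the other PBS livers. In GH replicate 6 they were at 51.2 and 128 CPM, against 10.5 to 58.4 and 22.5 to 136. Ptprc and S100a9 lay inside the range of the other livers in both libraries. Alas2 was the highest of its group in PBS replicate 5 and the lowest in GH replicate 6. Got1, a cytosolic aspartate aminotransferase gene, was at 789.9 CPM in PBS replicate 5 against 290.2 to 596 in the other PBS livers. It was at 611 CPM in GH replicate 6 against 153 to 320.3 in the other GH livers.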
